A study of Mus musculus with 8 samples.

Results

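Kinesins are motor proteins that walk along microtubules or remodel their ends, and the mouse genome encodes them in a large family of Kif genes. The genes described here are the 37 whose annotated symbol is Kif followed by a number and, in most cases, a letter from a to c, out of 22180 genes measured on these arrays. Where a gene had several single-symbol probe sets, the one with the highest mean was used, which concerned Kif5b, Kif7 and Kif27. By their known roles 11 are mitotic kinesins, 13 are transport kinesins and 13 have other roles, mostly in cilia or at microtubule ends.

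Expression was measured on 8 mouse gene arrays of sorted skin cells, and all values are log2 intensities after RMA, the standard summary of Affymetrix probes. P21_KO holds 4 arrays of 21-day-old mice that are B-raf fl/fl and also C-raf fl/fl, so that Cre can remove both kinases. P21_WT holds 2 arrays of 21-day-old mice and P4_WT 2 arrays of 4-day-old mice, both B-raf +/+ and C-raf +/+. All 3 groups carry TyrCre/°, which is Cre under a tyrosinase promoter, and Z/EG, a reporter that turns green after recombination. They were taken as GFP+/p75- cells on a mixed C57Bl/6 and 129/Sv background. The labels call the cells melanocyte stem cells at 21 days and melanoblasts, the precursors of pigment cells, at 4 days. Recombination follows Tyr::Cre activity, so cells that escaped it, or that turned Cre on outside the pigment lineage, are not separated by the genotype label.

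Melanoblasts divide and spread through the skin and into growing hair follicles shortly after birth, whereas melanocyte stem cells rest in the follicle between rounds of hair growth. In dividing cells, mitotic kinesins push spindle poles apart, line up chromosomes, trim microtubule ends and build the midzone at which the cell splits. Transport kinesins carry vesicles, organelles and ciliary parts toward the plus ends of microtubules in cells whether or not they divide, and pigment cells also move melanosomes this way.

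Several arrays stood apart before any kinesin gene was considered. P4_WT replicate 2 had an Xist value of 8.94 and an Eif2s3y value of 1.94, against 1.95 to 2.77 and 6.92 to 7.87 on the other arrays, so it differs in sex-linked genes. The mean of 8 endothelial markers was 5.68 on that array and 3.18 to 3.51 on the rest, and the mean of 8 immune markers was 5.41 against 3.02 to 3.38. P4_WT replicate 1 had the highest mean of 8 hair shaft and root sheath markers, 6.47, beside 4.35 on replicate 2 and 2.74 to 2.87 at 21 days. P21_KO replicate 4 lay at 48.4 on the second principal component, where the others lay between -22.5 and 10.2. The 9 melanocyte markers averaged 6.99 to 8.53 on P21_KO arrays, 9.04 and 8.81 in P21_WT and 9.74 and 9.70 in P4_WT, so the labelled lineage was present in every group. Other cell types gave signal too: over the 8 arrays 7 keratinocyte markers averaged 6.60 to 8.35 and 7 fibroblast markers 5.95 to 6.90. Against P21_WT, 8 of the 9 melanocyte markers were lower in P21_KO (48.6% of all genes) and Sox10 was higher. With limma's unadjusted p under 0.05, 7 of the 9 passed, all lower (6.52% of all genes passed), and 0 were called after adjustment. The part of these markers in the kinesin results was not tested. Braf, a target of the knockout, read 6.57, 6.49, 6.30 and 5.66 in P21_KO, 5.99 and 7.20 in P21_WT and 5.80 and 6.00 in P4_WT. These ranges overlap, and the probe set checks the deletion little, since its probes may lie outside the stretch that Cre removes.

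**Figure D1:**
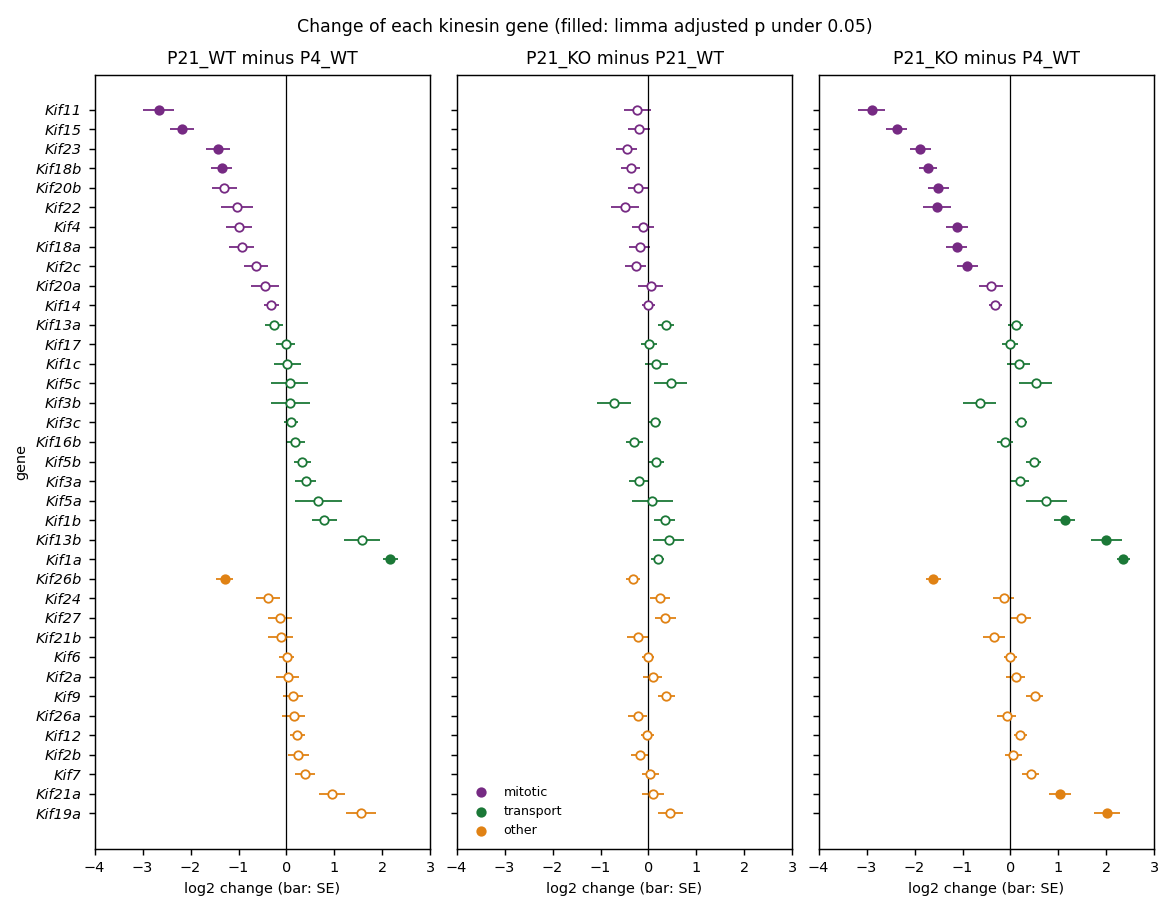
Log2 change of each of the 37 kinesin genes in 3 comparisons, P21_WT minus P4_WT, P21_KO minus P21_WT and P21_KO minus P4_WT, with bars for the standard error and filled points where limma's adjusted p is under 0.05. The 11 mitotic genes lie left of 0 in both comparisons with P4_WT, Kif1a lies farthest right, and in the comparison of knockout with wild type no point is filled.

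Promoters are shown first because the mitotic members share a sequence feature that played no part in choosing them. RefSeq promoter windows on GRCm38.p6, from 250 bases before to 50 after a start site, were found for 31 of the 37 genes. Kif13b, Kif19a, Kif20a, Kif21b, Kif5a and Kif5b were not in the table. The windows were searched on both strands for TTTGAA and TTCGAA, forms of the cell cycle genes homology region (CHR), and for CCAAT, the core of the CCAAT box. In cell cycle genes both elements are known to act together in restricting expression to the late phases of the cycle. The 4 mitotic kinesin genes that passed the test with age are given below, 5′ to 3′ on the strand of the gene, with every match to these 3 motifs in capitals (TTCAAA and ATTGG are TTTGAA and CCAAT read on the other strand).
Kif11, chr19:37376132-37376431, plus strand: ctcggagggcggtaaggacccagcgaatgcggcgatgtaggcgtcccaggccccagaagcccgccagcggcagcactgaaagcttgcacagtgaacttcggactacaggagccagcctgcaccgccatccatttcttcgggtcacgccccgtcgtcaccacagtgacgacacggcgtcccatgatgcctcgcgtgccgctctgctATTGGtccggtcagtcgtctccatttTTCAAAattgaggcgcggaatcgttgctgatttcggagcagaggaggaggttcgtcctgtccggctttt
Kif15, chr9:122950831-122951130, plus strand: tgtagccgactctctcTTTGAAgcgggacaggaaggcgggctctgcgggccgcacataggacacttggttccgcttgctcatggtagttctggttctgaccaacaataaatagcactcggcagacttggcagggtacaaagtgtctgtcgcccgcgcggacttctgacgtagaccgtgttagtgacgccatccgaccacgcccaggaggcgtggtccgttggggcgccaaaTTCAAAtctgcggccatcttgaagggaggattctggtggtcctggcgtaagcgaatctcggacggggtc
Kif18b, chr11:102925075-102925374, minus strand: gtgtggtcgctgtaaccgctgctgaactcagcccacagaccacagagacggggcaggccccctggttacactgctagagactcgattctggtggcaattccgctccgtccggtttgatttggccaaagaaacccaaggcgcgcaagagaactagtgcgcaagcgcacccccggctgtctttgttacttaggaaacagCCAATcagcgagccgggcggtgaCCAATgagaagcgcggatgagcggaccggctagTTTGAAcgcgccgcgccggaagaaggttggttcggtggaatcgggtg
Kif23, chr9:61946750-61947049, minus strand: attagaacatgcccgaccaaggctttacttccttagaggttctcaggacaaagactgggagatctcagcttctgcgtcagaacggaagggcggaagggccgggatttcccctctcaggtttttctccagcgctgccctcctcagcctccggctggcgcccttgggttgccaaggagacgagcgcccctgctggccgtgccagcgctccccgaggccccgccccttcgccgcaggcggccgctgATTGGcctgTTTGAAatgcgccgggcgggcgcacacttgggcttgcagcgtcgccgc

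TTTGAA was present in the windows of 9 of 10 mitotic kinesin genes (90%), 1 of 10 transport genes (10%) and 2 of 11 others (18.2%), against 5466 of 27025 genes in the promoter table (20.2%). Kif18a was the mitotic gene without it. Counting from the start site as 1, with the base before it as -1, a copy began at -19 in Kif11 and Kif15 and at -17 in Kif22. It began at 3 in Kif23, 4 in Kif18b, 8 in Kif20b and 20 in Kif4. Kif14 had its copy at -228 and Kif2c at -103. Both of these windows lie inside the annotated gene, as do some windows of the other classes, and both are counted among the 9. TTCGAA was found in 0 of 10 mitotic windows, 0 of 10 transport windows and 1 of 11 others, Kif24, against 1.8% of all genes. CCAAT was present in 6 of 10 mitotic genes (60%), 3 of 10 transport genes (30.0%) and 5 of 11 others (45.5%), against 41.1% of all genes, so it set the classes apart less than TTTGAA did. Of 20 genes encoding mitotic partners of these motors, 13 held TTTGAA (65.0%). A match is a run of letters and shows no binding.

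The contrast is Kif1a, the transport gene with the largest rise, for which the table holds 2 start sites. Its upstream window holds none of the 3 motifs, and the window inside the gene holds 1 TTTGAA.
Kif1a, chr1:93101825-93102124, minus strand: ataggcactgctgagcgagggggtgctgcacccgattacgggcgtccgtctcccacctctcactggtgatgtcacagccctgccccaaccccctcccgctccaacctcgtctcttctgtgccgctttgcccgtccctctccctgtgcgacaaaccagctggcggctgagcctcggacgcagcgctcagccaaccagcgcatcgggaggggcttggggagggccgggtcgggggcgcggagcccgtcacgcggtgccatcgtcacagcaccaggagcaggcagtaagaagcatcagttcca
Kif1a, chr1:93082431-93082730, minus strand: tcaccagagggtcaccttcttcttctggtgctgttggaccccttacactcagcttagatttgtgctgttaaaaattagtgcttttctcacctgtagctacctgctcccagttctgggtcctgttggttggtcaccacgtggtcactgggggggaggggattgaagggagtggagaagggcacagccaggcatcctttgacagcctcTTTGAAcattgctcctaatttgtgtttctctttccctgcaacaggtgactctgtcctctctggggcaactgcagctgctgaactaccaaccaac

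**Figure D2:**
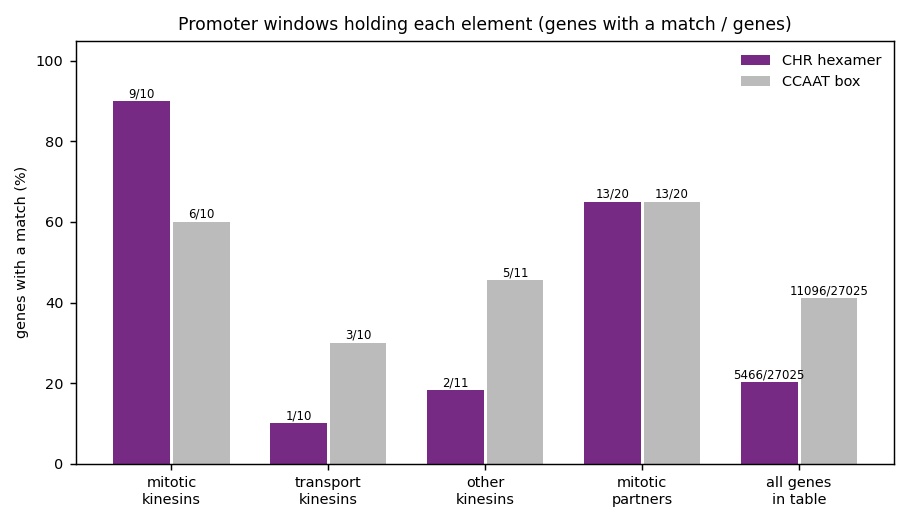
Percentage of genes whose promoter window holds the CHR hexamer TTTGAA (purple) or a CCAAT box (grey), for the 3 classes of kinesin genes, mitotic partner genes and all genes in the promoter table, with the number of genes above each bar. The CHR hexamer was in 9 of 10 mitotic kinesin genes and 20.2% of all genes.

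The first comparison asks how kinesin genes of melanocyte stem cells differ from those of melanoblasts, as P21_WT minus P4_WT. All 11 mitotic kinesin genes had lower means in P21_WT, as 49.8% of all genes did, with changes from -2.67 to -0.31 and a median of -1.04, beside a median of 0.0022 over all genes. The count rests on how roles were assigned, since Kif2a and Kif2b, relatives of Kif2c that also act at spindles, were placed among the genes with other roles and had changes of 0.02 and 0.25. Limma's test, adjusted over all 22180 genes, called 4 of them lower, Kif11, Kif15, Kif18b and Kif23, where 0.852% of all genes were called lower. Of the 13 transport genes 1, Kif1a, was called higher, where 0.757% of all genes were. Of the 13 others, Kif26b was called lower. In all 6 of 37 kinesin genes were called, against 1.61% of all genes. In sorted cell pools such as these, fewer cells that express a gene and less RNA per cell cannot be told apart.

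Kif11 encodes the motor that slides antiparallel microtubules apart and so makes the spindle bipolar. It read 3.49 and 2.89 on the P21_WT arrays, against 5.68 and 6.03 in P4_WT, a fall of 6.34-fold (log2 -2.67 ± 0.32 SE, limma adjusted p = 0.00828). The groups were far apart, but the wild-type pair at 21 days differed by more than the pair at 4 days. Kif15, which can keep the spindle bipolar beside Kif11, read 2.87 and 2.54 in P21_WT and 4.49 and 5.27 in P4_WT, a fall of 4.52-fold (log2 -2.18 ± 0.26 SE, limma adjusted p = 0.00708). The median of all genes on each array lay between 3.34 and 3.40, so in P21_WT Kif15 was below it on both arrays and Kif11 on 1 of 2. RMA compresses differences at low values, so these folds may be understated.

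Kif23 encodes the motor of centralspindlin, which bundles the midzone for cytokinesis. Its values were 3.56 and 3.69 in P21_WT, against 4.64 and 5.45 in P4_WT, a fall of 2.68-fold (log2 -1.42 ± 0.25 SE, limma adjusted p = 0.0345). The drop was carried most by P4_WT replicate 2, and without it the change was -1.02 and no longer called (limma adjusted p = 0.0733). The call was kept in 1 of the 8 fits that left out an array, the one without P4_WT replicate 1. Kif18b, a motor that shortens astral microtubules, read 3.25 and 2.80 in P21_WT and 4.21 and 4.55 in P4_WT, a fall of 2.55-fold (log2 -1.35 ± 0.23 SE, limma adjusted p = 0.0286). Here too the groups did not overlap, but the call was lost without P21_WT replicate 2 (-1.13, limma adjusted p = 0.14), P4_WT replicate 2 (-1.18, limma adjusted p = 0.117), P21_WT replicate 1 or P21_KO replicate 3.

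The remaining 7 mitotic genes did not pass. Kif20b, which acts late in cytokinesis, was nearest, with 3.51 and 3.43 in P21_WT against 4.48 and 5.05 in P4_WT (log2 -1.29 ± 0.26 SE, limma adjusted p = 0.0522). The chromokinesins push chromosome arms toward the spindle equator or organise the midzone. Of these Kif22 read 3.64 and 3.99 in P21_WT and 4.70 and 5.00 in P4_WT, and Kif4 read 3.19 and 2.85 in P21_WT against 3.61 and 4.42 in P4_WT. Kif4 is on the X chromosome and was higher on P4_WT replicate 2, the array that differs in sex-linked genes. Kif18a, which damps the movement of kinetochore microtubules, read 2.60 and 2.77 in P21_WT against 3.30 and 3.95 in P4_WT. Kif2c, a microtubule depolymerase that frees wrongly attached chromosomes, read 3.50 and 3.73 in P21_WT against 4.60 and 3.90 in P4_WT.

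The cytokinesis motors Kif14 and Kif20a moved least. Kif14 read 3.35 and 3.05 in P21_WT, against 3.47 and 3.56 in P4_WT, and Kif20a read 2.72 and 3.51 in P21_WT against 3.28 and 3.85 in P4_WT. Kif20a was the 1 mitotic gene of 11 whose arrays overlapped between the ages. For the other 10 both P21_WT arrays were lower, a pattern shown by 22.1% of all genes. P4_WT replicate 2 exceeded replicate 1 in 10 of the 11 genes, all but Kif2c, beside its higher endothelial and immune markers, whose part in the result was not tested. On P4_WT replicate 1 the endothelial mean was 3.51 and the immune mean 3.07, but that array had the highest mean of hair shaft and root sheath markers. These 8 genes were all lower in P21_WT (49.8% of all genes), with a median of -2.91. Limma called 3 of the 8 lower (0.852% of all genes), and their part in the mitotic result was not tested either. With that array alone for 4 days the class median was -0.985, and with replicate 2 alone it was -1.40.

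**Figure D3:**
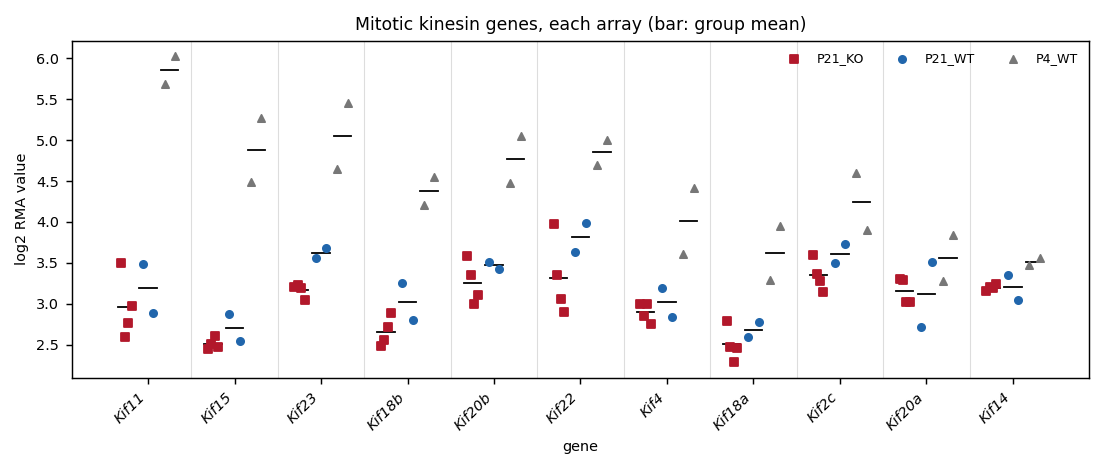
Log2 RMA value of the 11 mitotic kinesin genes on each array, with P21_KO (squares), P21_WT (circles) and P4_WT (triangles) side by side and bars at the group means. Both P4_WT arrays lie above every 21-day array for all genes but Kif20a, and the P21_KO and P21_WT points overlap for most.

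Among transport kinesins the change with age was concentrated in a few genes. Kif1a encodes a motor known in neurons for carrying precursors of synaptic vesicles and dense-core vesicles. It read 7.93 and 7.89 in P21_WT, against 5.78 and 5.72 in P4_WT, a rise of 4.48-fold (log2 2.16 ± 0.16 SE, limma adjusted p = 0.000935). The 2 arrays of each age agreed within 0.06, so the difference far exceeded the spread between replicates. Kif13b, which carries the scaffold protein Dlg1 and vesicles rich in phosphoinositides, read 6.43 and 6.81 in P21_WT against 4.71 and 5.40 in P4_WT (log2 1.57 ± 0.37 SE, limma adjusted p = 0.094). Kif1b, a mitochondrial and vesicle motor of the same kinesin-3 subfamily, read 6.52 and 6.77 in P21_WT against 5.69 and 6.01 in P4_WT (log2 0.79 ± 0.26 SE, limma adjusted p = 0.23). Neither passed, though their groups did not overlap.

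The remaining 10 transport genes had changes from -0.26 to 0.67, and 7 of all 13 had both P21_WT arrays above both P4_WT arrays, where 21.4% of all genes did. Kif5b, a heavy chain of kinesin-1 that moves many cargoes, read 7.42 and 7.16 in P21_WT and 6.88 and 7.04 in P4_WT. Its brain-enriched relatives differed in spread. Kif5a read 2.92 and 3.96 in P21_WT against 2.74 and 2.81 in P4_WT, and Kif5c read 2.18 and 2.93 in P21_WT against 2.30 and 2.68 in P4_WT. Kif13a, known in melanocytes for moving endosomes that deliver melanin enzymes to melanosomes, was the 1 transport gene whose P21_WT arrays were both lower, at 5.20 and 5.18 in P21_WT against 5.41 and 5.49 in P4_WT. The kinesin-2 motors of cilia and vesicles stayed close, with 6.62 and 6.55 in P21_WT against 6.07 and 6.29 in P4_WT for Kif3a, 5.86 and 5.78 in P21_WT against 5.72 and 5.75 in P4_WT for Kif3c, and overlapping arrays for Kif3b and Kif17. Kif1c and Kif16b, motors of vesicles and early endosomes, overlapped as well.

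Some markers of glia moved with Kif1a. The 7 measured of 9 Schwann cell and glial genes averaged 8.03 and 7.78 in P21_WT and 7.05 and 6.77 in P4_WT, and on P21_KO arrays they averaged 7.73 to 8.16. With age 4 of the 7 were called higher by limma (0.757% of all genes), and the arrays of the other 3, S100b, Sox2 and Ngfr, overlapped. The 9 markers of neurons, the cells in which Kif1a is best known, averaged 3.07 and 2.98 in P21_WT and 3.23 and 3.10 in P4_WT. On P21_KO arrays they averaged 3.04 to 3.21. Limma called 0 of the 9 with age at an adjusted or an unadjusted p under 0.05. The neuron means lay below the median of all genes on each array, 3.34 to 3.40, where a change may not show. The part of glial cells or of neurons in the Kif1a result was not tested.

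**Figure D4:**
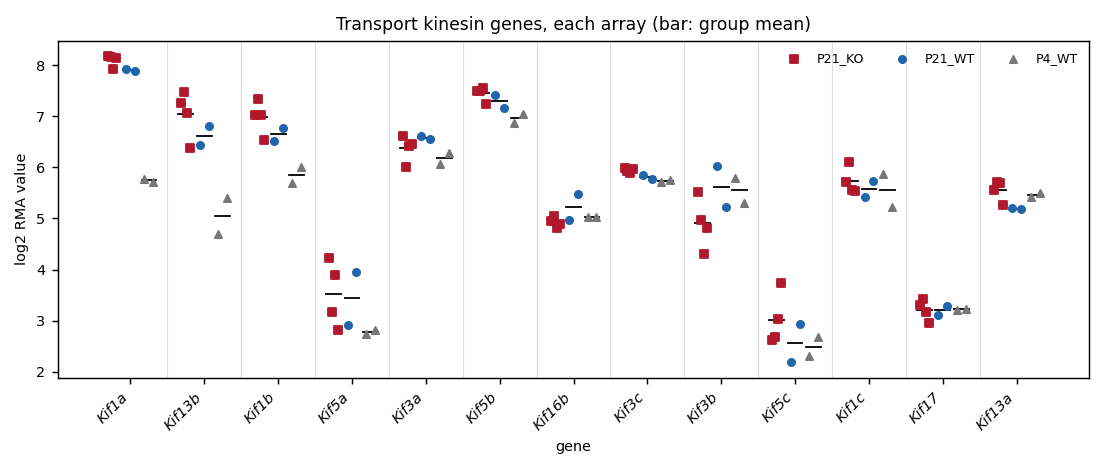
Log2 RMA value of the 13 transport kinesin genes on each array, with P21_KO (squares), P21_WT (circles) and P4_WT (triangles) side by side and bars at the group means. For Kif1a all 21-day arrays lie between 7.89 and 8.18 and both P4_WT arrays at 5.72 and 5.78, while most of the remaining genes overlap.

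Of the 13 genes with other roles, Kif26b was the 1 called. This kinesin-11 protein has lost motor activity and is known from development of the kidney. It read 3.98 and 3.93 in P21_WT, against 5.38 and 5.10 in P4_WT, a fall of 2.44-fold (log2 -1.28 ± 0.18 SE, limma adjusted p = 0.0129). Its promoter window also holds TTTGAA, at -9 from the start site. Kif19a, which shortens microtubules at the tips of cilia, read 5.38 and 5.93 in P21_WT and 4.28 and 3.92 in P4_WT, and lay at the threshold (log2 1.56 ± 0.30 SE, limma adjusted p = 0.0505). Kif21a, which restrains microtubule growth at the cell cortex, read 6.93 and 6.77 in P21_WT against 6.09 and 5.71 in P4_WT (log2 0.95 ± 0.27 SE, limma adjusted p = 0.154).

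The other 10 changed by -0.39 to 0.38, with none called. Kif2a, a depolymerase used both in spindles and in neurites, read 6.78 and 7.07 in P21_WT and 6.80 and 7.01 in P4_WT, and its arrays overlapped. Kif7, which sets the structure of the cilium tip for Hedgehog signalling, gave opposite answers with its 2 probe sets, 0.38 and -0.34, so no direction can be given. Kif6, Kif9, Kif12, Kif27 and Kif2b read at most 3.29 on every array, at the lower end of the scale, where a change may not show.

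The calls with age depended on single arrays, since each wild-type group has 2. Leaving out each of the 8 arrays in turn gave 1 to 7 called kinesin genes, with 3 left without P21_WT replicate 1 and 1 left without P21_WT replicate 2. Kif1a was called in all 8 of these fits. Kif11 and Kif15 kept the call in 7 of 8, Kif26b in 5, Kif18b in 4 and Kif23 in 1. With the wild-type arrays alone, which gives up the spread measured in P21_KO, Kif1a was the 1 gene called (limma adjusted p = 0.0457).

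The second comparison sets P21_KO against P21_WT, to find genes that differ when B-raf and C-raf can be removed. No kinesin gene was called by limma, as was the case for all genes (0 of 22180, 0%). At an unadjusted p under 0.05 there were 0 kinesin genes of 37, against 6.52% of all genes, and each of the alternative fits also called 0. Of the mitotic genes 10 of 11 had a lower mean in P21_KO, as 48.6% of all genes did, with changes from -0.49 to 0.04 and a median of -0.21, beside 0.0071 for all genes. Of the transport genes 10 of 13 had a higher mean, with changes from -0.72 to 0.47 and a median of 0.16. Both ranges were narrower than those of the same classes with age.

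Kif23 had the smallest p among mitotic genes. It read 3.20, 3.23, 3.19 and 3.05 on the P21_KO arrays, against 3.56 and 3.69 in P21_WT (log2 -0.45 ± 0.22 SE, limma adjusted p = 0.805). All 4 knockout arrays were lower, which no other mitotic gene showed and which 7.64% of all genes showed. Kif22 read 3.97, 3.35, 3.06 and 2.90 in P21_KO and 3.64 and 3.99 in P21_WT, and Kif18b read 2.48, 2.56, 2.71 and 2.88 in P21_KO against 3.25 and 2.80 in P21_WT. In both the groups overlapped.

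The knockout arrays were not alike. Replicate 1 had the highest value of the 4 for 6 of 11 mitotic genes, Kif11 (3.49 against 2.60 to 2.97) and Kif22 among them. It had the lowest for 3, Kif14, Kif15 and Kif18b, and the highest for 5 of 13 transport genes and 5 of 13 others. The share of all genes highest on replicate 1 was not counted. The mean of the 11 genes was 3.18 on that array and 2.98, 2.92 and 2.91 on replicates 2 to 4, which share a number in their labels, against 3.24 and 3.20 in P21_WT. Mki67, a marker of cycling cells, followed with 4.94 on replicate 1 and 3.82, 3.76 and 4.32 on the others, against 4.76 and 4.82 in P21_WT. Without replicate 1 the mitotic median was -0.31. Whether the shared label number marks a litter or another batch is not stated. With the label number as a random block, whose estimated correlation was 0.036, the mitotic median between genotypes was -0.20 and the kinesin genes called stayed at 0.

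Among transport genes, Kif13a had the smallest p between genotypes. It read 5.55, 5.72, 5.69 and 5.27 in P21_KO, against 5.20 and 5.18 in P21_WT, so every knockout array was higher (log2 0.37 ± 0.16 SE, limma adjusted p = 0.781), as for 7.75% of all genes. Kif3b, the partner of Kif3a in kinesin-2, read 5.52, 4.98, 4.31 and 4.82 in P21_KO against 6.03 and 5.22 in P21_WT, the lowest change of the 37 (log2 -0.72 ± 0.35 SE, limma adjusted p = 0.81), with overlapping arrays. Kif5c had 3.73 on P21_KO replicate 4 and 2.62 to 3.04 on the other 3, against 2.18 and 2.93 in P21_WT. Kif5b differed between its probe sets. The one used read 7.50, 7.50, 7.54 and 7.25 in P21_KO against 7.42 and 7.16 in P21_WT (log2 0.16), and the other read 6.84, 7.14, 7.33 and 6.67 in P21_KO against 5.98 and 6.56 in P21_WT (log2 0.73), so the size of its difference is uncertain.

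Of the genes with other roles, Kif26b continued below P21_WT, with 3.57, 3.80, 3.50 and 3.66 in P21_KO against 3.98 and 3.93 in P21_WT (log2 -0.32 ± 0.15 SE, limma adjusted p = 0.801). All 4 of its knockout arrays were lower. Kif9, a motor of motile cilia, read 2.92, 2.75, 2.57 and 2.46 in P21_KO against 2.17 and 2.43 in P21_WT (log2 0.37 ± 0.18 SE, limma adjusted p = 0.806) at the low end of the scale. Kif19a read 6.43, 5.67, 5.98 and 6.37 in P21_KO against 5.38 and 5.93 in P21_WT, with overlap.

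The third comparison, P21_KO minus P4_WT, differs in both age and genotype and shares the P4_WT arrays with the first, so it is no second look at age. With 4 arrays in place of 2 at 21 days, 15 of 37 kinesin genes were called, 10 lower and 5 higher, where 7.73% of all genes were called. Mitotic genes made up 9 of the 10 that fell, all but Kif14 and Kif20a, where 4.68% of all genes were called lower, and the class median was -1.50, with 11 of 11 below 0 (47.3% of all genes), beside 0.019 for all genes. The tenth was Kif26b. All 4 knockout arrays lay below both P4_WT arrays in 10 of the 11 mitotic genes (15.5% of all genes) and above them in 6 of the 13 transport genes (14.2%). The 5 that rose were the kinesin-3 genes Kif1a, Kif13b and Kif1b, and Kif19a and Kif21a, where 3.05% of all genes were called higher.

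The mitotic genes fell as follows. Kif11 averaged 2.96 ± 0.39 in P21_KO (SD, n = 4) and 5.85 ± 0.24 in P4_WT (SD, n = 2), 7.44-fold lower (log2 -2.90 ± 0.28 SE, limma adjusted p = 0.000986). Kif15 averaged 2.51 ± 0.07 in P21_KO and 4.88 ± 0.55 in P4_WT, 5.19-fold lower (limma adjusted p = 0.000849), and Kif23 fell 3.67-fold and Kif18b 3.29-fold. Kif20b was at -1.50, Kif22 at -1.53, Kif18a at -1.12, Kif4 at -1.11 and Kif2c at -0.90 on the log2 scale, each called by limma with an adjusted p up to 0.0456. Kif2c was the weakest, called in 2 of the 8 fits that left out 1 array, while Kif4 was called in 4, Kif22 in 6 and Kif18a in 7.

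Kif1a read 8.18, 8.16, 7.92 and 8.14 on the P21_KO arrays, against 5.78 and 5.72 in P4_WT, 5.11-fold higher (log2 2.35 ± 0.14 SE, limma adjusted p = 0.000149). Kif13b read 7.25, 7.48, 7.07 and 6.38 in P21_KO against 4.71 and 5.40 in P4_WT, 3.99-fold higher (log2 2.00 ± 0.32 SE, limma adjusted p = 0.00875), though without P4_WT replicate 1 its adjusted p was 0.0697. Kif1b read 7.02, 7.33, 7.02 and 6.54 in P21_KO against 5.69 and 6.01 in P4_WT (log2 1.13 ± 0.23 SE, limma adjusted p = 0.0214), and the call was lost without P4_WT replicate 1 (0.966, limma adjusted p = 0.141), P4_WT replicate 2 or P21_KO replicate 3. P21_KO replicate 4, which also had the lowest melanocyte markers, was the lowest of the 4 arrays for Kif13b and Kif1b and for 7 of the 13 transport genes, but not for Kif1a. It was also the lowest for 5 of 11 mitotic genes and 2 of 13 others, and the share of all genes was not counted. Kif19a rose 4.03-fold (log2 2.01 ± 0.26 SE, limma adjusted p = 0.00363) with all 4 knockout arrays between 5.67 and 6.43. Kif21a, at 6.46 to 7.23 in P21_KO against 6.09 and 5.71 in P4_WT, rose by 1.04 ± 0.23 (SE) and kept its call in 1 of the 8 fits that left out 1 array.

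Genes that work with these motors were compared by the same fit. Of 22 measured mitotic partner genes, which encode regulators and binding partners at the spindle and midzone, 21 were lower in P21_WT than in P4_WT and 9 were called lower (0.852% of all genes), with a median of -1.51. Birc5 and Aurkb, of the complex that Kif20a carries to the midzone, fell by 3.36 and 2.72. Racgap1, which binds the Kif23 protein, was at -1.30 (limma adjusted p = 0.166), and Prc1, which works with Kif4, at -1.84 (limma adjusted p = 0.0556). In P21_KO minus P4_WT 18 of 22 were called lower (4.68% of all genes), and between genotypes 0 were called. Between genotypes 19 of 22 were lower in P21_KO (48.6% of all genes), with a median of -0.21. At limma's unadjusted p under 0.05, 5 passed there, all lower (6.52% of all genes passed). Mki67 fell by 2.89 with age (limma adjusted p = 0.0103). Of 4 kinesin genes whose symbols lie outside the family rule, 1 was called lower with age (0.852% of all genes). This was Cenpe, a kinetochore motor, which fell by 1.85 (limma adjusted p = 0.0103). Kifc1, a minus-end spindle motor, was at -1.47 (limma adjusted p = 0.161), with 4.95 and 3.55 on P4_WT replicates 1 and 2. The other 2 were higher in P21_WT, at 0.29 and 0.24, and were not called.

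Partners of the transport motors were compared in the same way. Of 15 measured light chain and adaptor genes 1 was called higher in P21_WT (0.757% of all genes), and the median was 0.07. This was Mapk8ip1, whose product JIP1 links kinesin-1 to cargo, with 7.25 and 7.65 in P21_WT against 5.76 and 5.75 in P4_WT (log2 1.69, limma adjusted p = 0.0105). In P21_KO Mapk8ip1 read 8.00, 7.48, 7.82 and 7.91. There Spag9, which encodes JIP4, was also called against P4_WT (log2 1.08, limma adjusted p = 0.0141). That made 2 of 15 called higher, where 3.05% of all genes were. The light chain gene Klc1 was at 0.37 with age and did not pass (limma adjusted p = 0.605). Of 20 genes of dynein and dynactin, the motor that moves toward minus ends, 0 were called by limma in any of the 3 comparisons. At an unadjusted p under 0.05 there were 4 with age (12.6% of all genes), 3 between genotypes (6.52%) and 5 in P21_KO minus P4_WT (20.5%), and the medians were 0.0048, 0.0070 and 0.028.

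**Figure D5:**
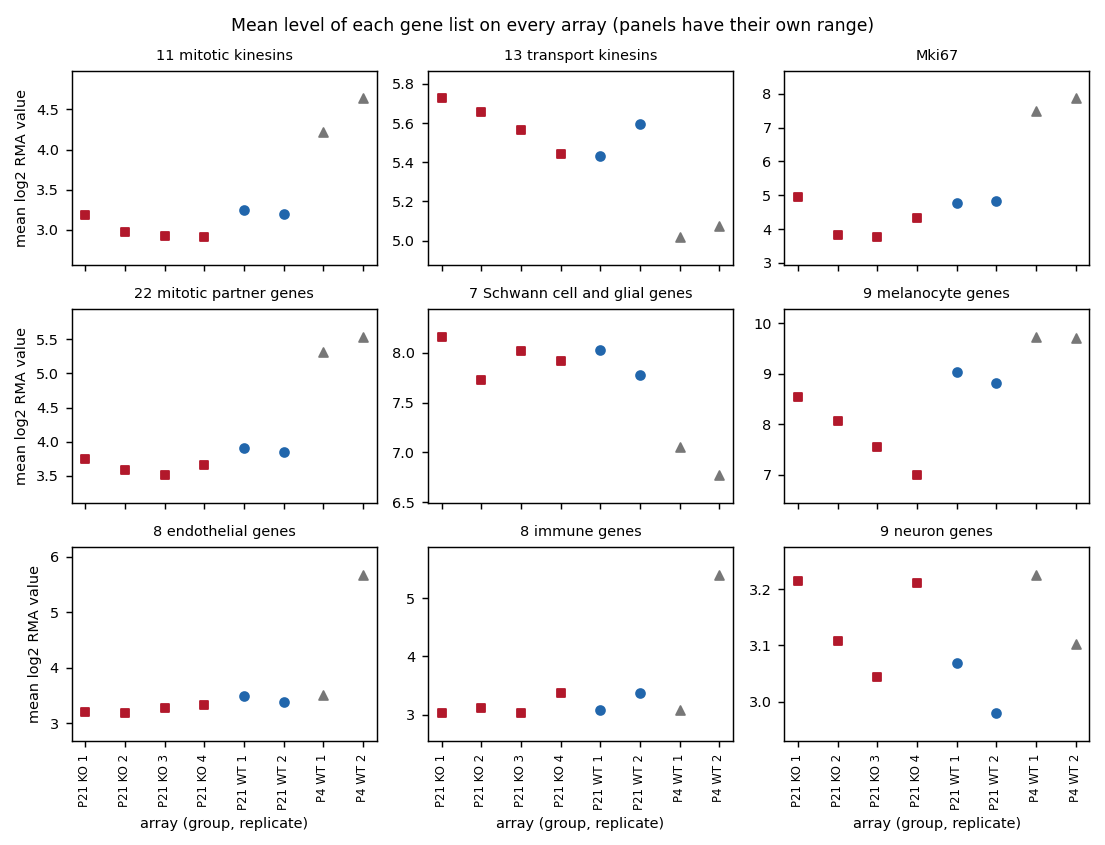
Mean log2 RMA value of each gene list (and the value of Mki67) on every array, P21_KO (squares), P21_WT (circles) and P4_WT (triangles), with a separate range in each panel. The mitotic kinesins, their partners and Mki67 are high on both P4_WT arrays, transport kinesins and glial genes are low there, and endothelial and immune genes stand out on P4_WT replicate 2.

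Within groups, the spread between arrays was as follows. The median difference between the 2 P21_WT arrays was 0.33 for mitotic, 0.25 for transport and 0.26 for the other genes, and between the 2 P4_WT arrays it was 0.57, 0.16 and 0.21. The 2 arrays at 4 days were thus less alike in the mitotic class than in the other two. The range over the 4 P21_KO arrays had a median of 0.40, 0.56 and 0.56 in the same order of classes.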

How the data were processed

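The deposited values are log2 intensities computed by RMA; the submitters' processing notes name Affymetrix Expression Console as the software, with versions not given in the sources used here. Per the labels' protocols, RNA of sorted GFP+/p75- skin cells was amplified as cDNA before labelling, which adds spread. Of 41345 probe sets, 23521 had 1 gene symbol, several symbols were given for 1814, and 16010 were unnamed here. The probe set with the highest mean was kept per gene, which left 22180 genes; 1 further row that joins Kif3c with another gene was not used. One model of the 3 groups was fitted to all 8 arrays (limma 3.58.1, lmFit and eBayes, R 4.3.3, 5 residual degrees of freedom) and tested on simulated data. Of 100 genes given a log2 change of 1, it recovered 21% with age, 34% between genotypes and 41% in P21_KO minus P4_WT. Most changes of that size were thus missed in each comparison. Of 100 given a change of 2, it recovered 66%, 81% and 82%, and false calls numbered 6, 11 and 4. P-values are two-sided, adjusted by Benjamini-Hochberg over all genes, and called under 0.05. They reflect only how far these samples vary, and would be too small if P21_KO replicates 2 to 4, whose labels share a number, are not independent animals. The number of arrays limits the precision. Gene roles, lists and members were chosen with earlier results of these data known. The text gives values for called members and for the 3 of each class with the smallest p per comparison, and the rest by values or ranges. Alternatives covered the arrays fitted, prior, array weights, 3 normalizations, a filter on dim genes, probe sets, blocks and leaving out each array.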

Additional observations from a re-analysis of the deposited data

Results flagged for a closer look

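For 4 of the 37 kinesin genes, 1 of the 4 P21_KO arrays stood far from the other 3. Chance alone would give about 1 gene in 20. The share of all genes with such a lone array was not counted, so no excess among kinesin genes is shown. Kif1a read 7.92 on replicate 3 and 8.14 to 8.18 on the others. Kif5b read 7.25 on replicate 4 and 7.50 to 7.54 on the others. Kif7 read 3.70 on replicate 2 and 4.11 to 4.15 on the others, and Kif12 read 2.97 on replicate 1 and 3.15 to 3.18 on the others. Each lone array was the lowest of its 4, and the arrays differed from gene to gene.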

How the results depend on the processing

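No direction of a called kinesin gene, or of the 3 genes per class with the smallest p, reversed under any alternative. With age, 357 genes were called, against 49 with only the arrays of the 2 groups, 45 with replicate number as a block, 674 at an adjusted p under 0.10 and 119 to 338 leaving out 1 array. The 6 kinesin genes called with age became 1 with only the arrays of the 2 groups, 1 with the replicate block, 9 at an adjusted p under 0.10 and 1 to 7 leaving out 1 array. The other normalizations gave 7 to 9. In P21_KO minus P4_WT, 1715 genes and 15 kinesin genes were called, against 463 and 8 with the replicate block, and 921 to 1529 and 10 to 14 leaving out 1 array. The replicate block gave a mitotic median of -1.19 there, against -1.50. Replicate numbers above 2 occur only in P21_KO, so the block fitted those arrays exactly. Its values for P21_KO, here and between genotypes, thus rest on replicates 1 and 2 and are no plain adjustment for pairing. Same-numbered arrays had deviations correlated between -0.04 and 0.01 over all genes, so no pairing by replicate number showed there. In groups of 2 arrays the deviations mirror each other, and such a correlation cannot exclude pairing in some genes. With age the block left Kif11 at -2.67 while its limma adjusted p became 0.0702, so a call lost there is not by itself a smaller change. Between genotypes, 0 genes were called, and 0 to 15 leaving out 1 array. Kinesin genes called stayed at 0, and under the replicate block the mitotic median was -0.13 and the transport median 0.21. Leaving out 1 array moved the mitotic median to between -1.40 and -0.985 with age, -0.31 and -0.17 between genotypes, and -1.68 and -1.25 in P21_KO minus P4_WT. The transport median moved to between 0.15 and 0.37, 0.094 and 0.22, and 0.20 and 0.34. A filter on dim genes kept 25 of the 37 kinesin genes, so it says nothing of the other 12. The cause of these shifts was not tested beyond the smaller number of arrays.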
